A study of Rattus norvegicus with 119 samples.

Results

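The comparison described here is low-dose pioglitazone against vehicle after 28 days of dosing, in scraped rat bladder urothelium. Its members are 19 arrays of 119 in the series, chosen by their group labels and by the submitters' mark that an array passed quality control. Of these, 9 came from rats given pioglitazone (5 females and 4 males) and 10 from rats given vehicle (5 females and 5 males). The treated minus vehicle difference was taken within each sex and then averaged over the sexes.

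The animals were Sprague-Dawley rats, an outbred strain, with 10 per sex and group in the dosing study and 5 per sex and group taken for profiling. A further male of the low-dose group is not analysed here, and the sources used here do not give the animals' age. Treated rats received pioglitazone hydrochloride at 16 mg/kg/day by mouth, in a volume of 10 mL/kg. Control rats received the 0.5% methylcellulose solution alone, and necropsy followed 1 day after the last dose. The other groups used below are the same dose and its own vehicle after 3 days (20 arrays) and 90 days (19 arrays), pioglitazone at 63 mg/kg/day (10 arrays at 28 days) and rosiglitazone maleate at 10 mg/kg/day (10 arrays at 28 days). Signals are on the log2 scale, so that a difference of 1 is 1 doubling, and animals are numbered within their group as the labels number them.

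Pioglitazone is a thiazolidinedione, a class of antidiabetic drugs that act as agonists of PPAR-gamma, a nuclear receptor. The activated receptor pairs with a retinoid X receptor, binds paired copies of a short DNA element and switches on genes of fatty acid uptake, storage and breakdown. Urothelium is the stratified lining of the bladder. Its umbrella cells carry uroplakin plaques at the surface, and PPAR-gamma is strongly expressed there and takes part in its differentiation.

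The scrapings carried the defining markers of urothelium on all 19 arrays. Upk1a lay between 17.43 and 18.28, Upk2 between 15.92 and 17.27, and Krt18 between 17.54 and 18.11 (log2 signal). Upk3b lay between 9.04 and 10.26. Across genes, 18 of the 19 arrays correlated with the median array at 0.973 or more. Low-dose female 5 correlated at 0.873, although it is marked as passing quality control. The 16 smooth muscle markers averaged 8.0 to 11.9 on 16 arrays, and 14.9, 14.1 and 14.5 on vehicle male 2, vehicle male 4 and low-dose female 5. Results on the genes and marker lists that move most without these animals are given both ways.

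After 28 days, 44 of 12713 genes tested differed between treated and vehicle animals at an adjusted p under 0.05 (0.346%). They comprised 20 genes that were higher (0.157%) and 24 that were lower (0.189%), by limma with Benjamini-Hochberg adjustment over all genes tested. At an unadjusted p under 0.05 there were 1359 genes (10.7%). The genes that rose had a median difference of 0.94 and those that fell one of -0.67, against -0.02 over all genes. Thiolases of fatty acid oxidation (Acaa1a, Acaa1b, Acaa2), the carnitine palmitoyltransferase relative Cpt1c, lipid carriers and coats (Fabp4, Plin2), retinoid carriers (Rbp7, Ttr) and the aldo-keto reductase gene Akr1b8 were among the genes that rose. The transcription factor gene Pou3f1, the guidance factor gene Slit2 and the Wnt acyltransferase gene Porcn were among those that fell. In scrapings, fewer cells of a type and less RNA per cell cannot be told apart.

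All 44 genes had the same sign in females and in males. In 10 of them no treated animal overlapped a vehicle animal of its own sex, 4 higher and 6 lower, where 0.0865% and 0.165% of all genes tested did so. Taken in 1 sex alone, 6 of the rises and 8 of the falls were free of overlap in females (0.834% and 1.31% of all genes) and 15 and 17 in males (3.67% and 2.69%). For 34 of the 44, all 9 treated animals lay on the same side of the vehicle mean of their sex, as they did for 4.77% of all genes tested. The 44 genes were called from these same animals, so agreement in sign and separation between groups are partly set by that choice. The share of all genes with the same sign in both sexes was not counted. When each of the 19 animals was left out in turn, between 18 and 41 genes were called, and 11 genes were called in all 19 fits. These were Acaa1a, Acaa1b, Cpt1c, Rgs17, Rbp7, Ramp1 and Eif5a2 among the rises and Pou3f1, Slit2, Rin2 and Sipa1l2 among the falls. The count fell to 24, 24 and 29 without vehicle female 1, 4 or 5, to 18 without vehicle male 1, to 28 and 27 without low-dose female 2 or 5, and to 26, 20 and 18 without low-dose male 1, 3 or 4.

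**Figure D1:**
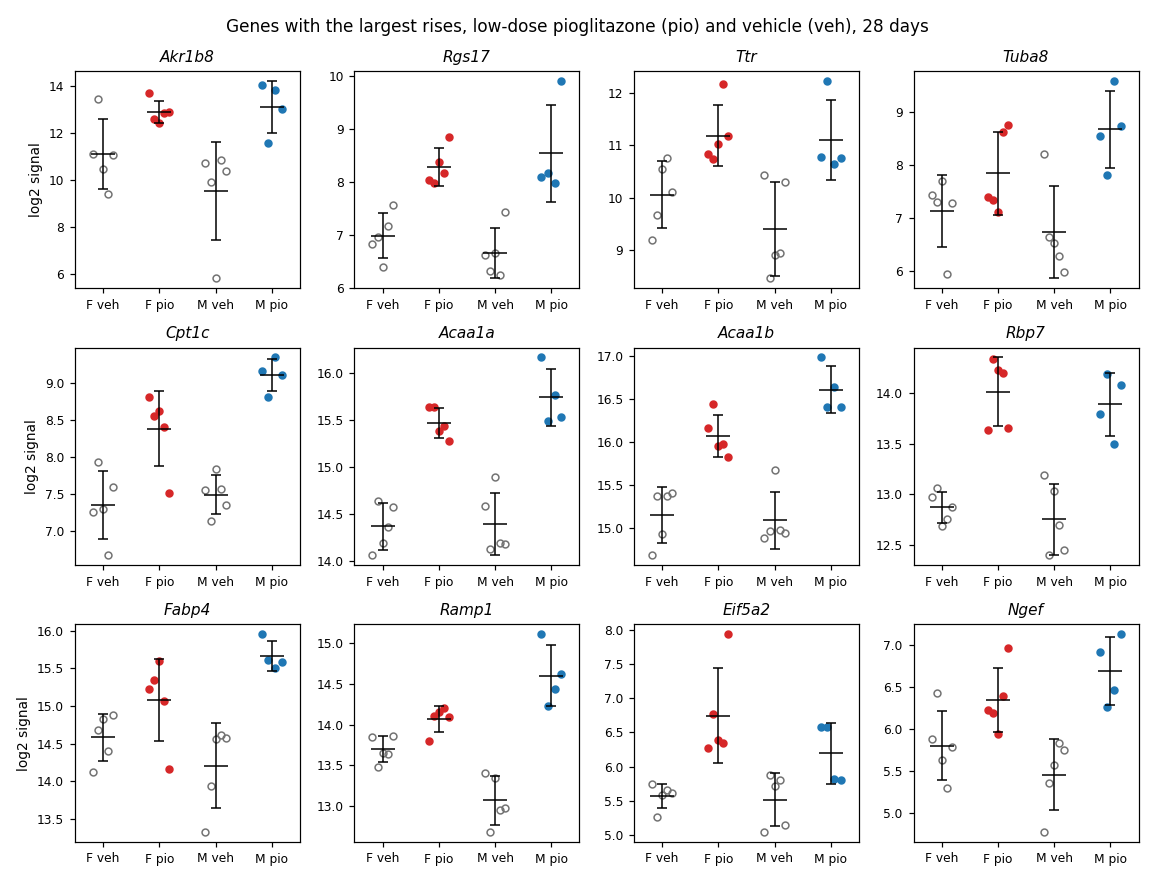
Log2 signal (vertical axis) of the 12 genes with the largest rises, for each animal of the 4 groups at 28 days: females (F) and males (M) given vehicle (veh, open circles) or low-dose pioglitazone (pio, filled circles). Horizontal bars are group means and whiskers the SD; vertical axes differ between panels and do not start at 0. Treated and vehicle animals of a sex do not overlap for Rgs17, Acaa1a, Acaa1b and Rbp7.

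Promoters of the called genes come first, because PPAR-gamma acts through DNA. Of the 44 genes, 33 have an entry of 300 bases (250 before to 50 after the start) in the RefSeq table of build GRCr8, 16 that rose and 17 that fell. Fabp4, Cpt1c, Acaa2, H1fx, Pou3f1, Slit2, Bcl11b, Cfhr4, Acss1, Galnt2 and Cpne3 are not among them. Each was searched on both strands for the PPAR response element, which is AGGTCA, 1 base of any kind and AGGTCA again, with at most 3 mismatches in 12 letters. An exact single AGGTCA, which can lie inside the full element, was searched for as well. The element was found in 2 of the 16 promoters of genes that rose (Akr1b8 and Tuba8) and in 3 of the 17 of genes that fell (Stat5a, Rin2 and Porcn), against 24.9% of all 33469 promoters in the table. With at most 2 mismatches it was found in 0 of either group, against 3.77% of all promoters. The single AGGTCA stood in 1 promoter of a gene that rose (Tuba8) and in 2 of genes that fell (Stat5a and Plaat3), against 16.2% of all. These counts describe letters in a window of this length and say nothing about binding.
The promoters of Akr1b8 (chr4:63964171-63964470, plus strand), Tuba8 (chr4:156112022-156112321, plus strand) and Stat5a (chr10:86285609-86285908, plus strand) are printed to show the matches, in capitals, which in Tuba8 include a single AGGTCA apart from the longer match (read on the opposite strand). Those of Acaa1a (chr8:127957231-127957530, plus strand) and Acaa1b (chr8:127759520-127759819, minus strand), genes of the same chromosome that rose at each dosing time, hold no match and are printed to show that the pair has separate promoter sequences.
Akr1b8: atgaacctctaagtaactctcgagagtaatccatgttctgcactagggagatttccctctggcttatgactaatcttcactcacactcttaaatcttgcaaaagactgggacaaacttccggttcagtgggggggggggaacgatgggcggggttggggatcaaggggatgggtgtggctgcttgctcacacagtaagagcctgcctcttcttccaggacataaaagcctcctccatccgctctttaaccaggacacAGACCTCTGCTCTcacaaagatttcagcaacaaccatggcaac
Tuba8: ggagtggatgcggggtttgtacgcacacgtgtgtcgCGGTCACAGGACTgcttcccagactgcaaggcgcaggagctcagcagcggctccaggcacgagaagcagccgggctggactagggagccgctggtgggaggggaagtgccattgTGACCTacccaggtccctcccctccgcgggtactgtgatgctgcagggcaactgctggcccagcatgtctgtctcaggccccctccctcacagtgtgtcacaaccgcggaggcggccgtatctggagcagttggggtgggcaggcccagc
Stat5a: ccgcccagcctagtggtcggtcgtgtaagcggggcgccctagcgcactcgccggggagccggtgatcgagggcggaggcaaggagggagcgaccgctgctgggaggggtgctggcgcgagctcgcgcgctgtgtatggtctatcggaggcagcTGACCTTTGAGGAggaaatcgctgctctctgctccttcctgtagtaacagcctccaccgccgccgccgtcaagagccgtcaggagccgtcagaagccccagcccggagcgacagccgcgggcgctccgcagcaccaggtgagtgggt
Acaa1a: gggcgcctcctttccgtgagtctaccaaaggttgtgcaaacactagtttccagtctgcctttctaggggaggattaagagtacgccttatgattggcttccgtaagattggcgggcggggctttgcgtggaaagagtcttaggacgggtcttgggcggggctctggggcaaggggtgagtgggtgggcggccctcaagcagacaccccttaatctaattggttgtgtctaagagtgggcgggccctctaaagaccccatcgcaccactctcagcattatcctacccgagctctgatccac
Acaa1b: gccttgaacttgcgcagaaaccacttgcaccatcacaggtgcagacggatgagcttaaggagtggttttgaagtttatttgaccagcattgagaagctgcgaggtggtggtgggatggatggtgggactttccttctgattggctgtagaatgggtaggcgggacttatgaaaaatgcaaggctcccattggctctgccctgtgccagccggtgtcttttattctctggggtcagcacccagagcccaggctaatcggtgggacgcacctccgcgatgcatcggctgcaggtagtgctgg

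Of 40 tested genes of fatty acid oxidation and the peroxisome, 4 rose and 0 fell, where 0.157% and 0.189% of all genes tested did. At an unadjusted p under 0.05, 6 of the 40 were higher and 3 lower, where 698 and 661 of all 12713 genes were. The list includes Cpt1c for its family, although its product is not known to act in oxidation as its relatives do. The median of the list was 0.06 with 14 below 0, and 0.11 with 10 below 0 without the arrays of correlation under 0.9. The peroxisomal thiolase gene Acaa1a, whose product cuts shortened fatty acids in the last step of each oxidation round, gave 14.06, 14.64, 14.19, 14.36 and 14.57 in vehicle females and 15.63, 15.63, 15.38, 15.43 and 15.27 in treated females. In vehicle males it gave 14.58, 14.13, 14.89, 14.19 and 14.18 and in treated males 16.16, 15.49, 15.76 and 15.53. Every treated animal lay above every vehicle animal of its sex. The rise was 2.33-fold (1.22 ± 0.19 log2, SE, adjusted p 9.23e-05). Its neighbour Acaa1b, which codes for a second peroxisomal thiolase, gave 14.68 to 15.40 in vehicle and 15.82 to 16.44 in treated females. The ranges in males were 14.88 to 15.67 and 16.40 to 16.98, again without overlap. This rise was 1.22 ± 0.20, with an adjusted p of 9.23e-05. These genes are close relatives, and cross-hybridisation between their probes was not tested.

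Cpt1c, the brain-type relative of the carnitine palmitoyltransferases, stood at 7.26, 7.93, 7.3, 6.68 and 7.59 in vehicle females and 8.81, 8.55, 8.62, 8.41 and 7.51 in treated females. Its values were 7.56, 7.14, 7.84, 7.57 and 7.36 in vehicle males and 9.16, 8.81, 9.34 and 9.11 in treated males. Low-dose female 5 was the only treated animal within the vehicle range. The rise was 2.50-fold (1.32 ± 0.22, adjusted p 9.23e-05). Acaa2, the mitochondrial thiolase, ranged from 12.27 to 12.66 in vehicle and 12.45 to 13.19 in treated females, and from 10.98 to 12.77 and 12.95 to 13.26 in males. Males were fully separated and females overlapped. The mean rise was 0.73 ± 0.17 (adjusted p 0.0224), and it was not called without vehicle male 1, the lowest of its group (adjusted p 0.106), nor in 2 other fits with an animal left out. Crat, which moves acyl groups between carnitine and coenzyme A, gave 0.30 (adjusted p 0.134), and Cpt1a, the family member at the mitochondrial entry step in most tissues, gave 0.04 (adjusted p 0.962).

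Of 30 genes tested as targets of PPAR-gamma or parts of the lipid droplet, 2 rose and 0 fell (0.157% and 0.189% of all genes). Their median difference was 0.19, with 24 of 30 above 0, where 5794 of all 12713 genes were. The fatty acid carrier gene Fabp4 gave 14.13, 14.68, 14.83, 14.40 and 14.88 in vehicle females and 15.23, 15.34, 15.59, 15.06 and 14.16 in treated females. Vehicle males gave 13.33, 13.94, 14.56, 14.62 and 14.58 and treated males 15.95, 15.61, 15.51 and 15.58. Low-dose female 5 alone fell within the vehicle range, near its lower end. Fabp4 rose 1.96-fold (0.97 ± 0.24, adjusted p 0.0427). That call ended in 13 of the 19 fits with an animal left out, the highest adjusted p being 0.160 without vehicle male 1. Without the arrays of correlation under 0.9 the difference was 1.09 (adjusted p 0.0173). Plin2, which coats lipid droplets, ranged from 11.98 to 12.85 in vehicle and 12.38 to 13 in treated females, and from 11.82 to 12.05 and 12.77 to 13.17 in males. It rose by 0.68 ± 0.17 (adjusted p 0.0483), a call that ended in 17 of the 19 fits (highest 0.134, without low-dose male 1). Dgat2 and Dgat1, which complete triglyceride synthesis, gave 0.35 and 0.27 (adjusted p 0.311 and 0.431). Angptl4, an inhibitor of lipoprotein lipase, gave 0.38 (adjusted p 0.505), and the fatty acid carrier genes Fabp5 and Fabp3 gave 0.15 and 0.00. Adiponectin (Adipoq) and Cidec, which are mainly adipocyte products, gave 0.65 ± 1.05 and 0.14 ± 0.45. Adipoq stood at 11.5 in low-dose female 5 and at 3.94 to 5.01 in the other treated females, and without the arrays of correlation under 0.9 it gave -0.04 and Cidec 0.05. The 10 tested adipocyte markers averaged 9.1 in that animal, 6.4 to 6.6 in the other treated females and 6.3 to 7.3 in vehicle females. They averaged 6.0 to 7.2 in vehicle males and 6.4 to 6.9 in treated males.

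The receptor gene Pparg gave 14.47 to 14.67 in vehicle females, 14.27 to 14.65 in treated females, 14.43 to 15.02 in vehicle males and 13.88 to 14.35 in treated males. All 4 treated males lay below all 5 vehicle males, and the females overlapped. The mean difference was -0.32 ± 0.14, which did not pass the test (adjusted p 0.377). Its partner gene Rxra gave -0.19 (adjusted p 0.826). Of 18 receptor, partner and coregulator genes, 0 were called, 3 at an unadjusted p under 0.05, all lower (5.2% of all genes were lower at that p). Among these 18, 15 were below 0 (83.3%, against 54.4% of all genes), with a median of -0.16. Without the arrays of correlation under 0.9, 12 were below 0 and the median was -0.09.

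From 16 tested genes of retinoid handling, 2 rose and 0 fell (0.157% and 0.189% of all genes), with a list median of 0.02. Rbp7, a cellular retinol-binding protein, stood at 12.97, 13.06, 12.69, 12.76 and 12.87 in vehicle females and 13.64, 14.34, 14.23, 14.20 and 13.65 in treated females. It stood at 13.19, 12.40, 13.03, 12.70 and 12.45 in vehicle males and 13.79, 14.19, 13.50 and 14.08 in treated males. The groups did not overlap in either sex, and the difference was 1.14 in females and 1.14 in males. Over both the rise was 2.20-fold (1.14 ± 0.22, adjusted p 0.00257). Ttr, which carries thyroxine and retinol-binding protein in plasma, ranged from 9.19 to 10.76 in vehicle and 10.73 to 12.17 in treated females, and from 8.47 to 10.44 and 10.65 to 12.23 in males. Only low-dose female 2 (10.73) lay below the highest vehicle animal of its sex. Ttr rose by 1.41 ± 0.35 (adjusted p 0.0360), and the call ended in 12 of the 19 fits (highest 0.145, without low-dose male 2). Without the 3 animals of high smooth muscle signal it gave 1.17 (adjusted p 0.206). Aldh1a1, which oxidises retinaldehyde, gave 0.79 ± 0.51 (adjusted p 0.579).

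The largest rise of all called genes was that of Akr1b8, an aldo-keto reductase that reduces reactive aldehydes. Vehicle females gave 11.08, 13.43, 10.47, 9.39 and 11.06 and treated females 13.68, 12.57, 12.43, 12.84 and 12.89. Vehicle males gave 10.69, 9.90, 5.80, 10.82 and 10.36 and treated males 14.01, 11.56, 13.81 and 13.02. Vehicle animals spread widely: female 2 lay within the treated range, and male 3 lay far below the others. The mean rise was 6.45-fold (2.69 ± 0.58, adjusted p 0.0120), and the call ended in 1 fit, without vehicle male 3 (adjusted p 0.0575). Of 29 genes of xenobiotic and oxidative stress metabolism, Akr1b8 was the only one called, and the list median was -0.02, or 0.08 without the arrays of correlation under 0.9. At an unadjusted p under 0.05, 8 of the 29 were higher and 3 lower, where 698 and 661 of all 12713 genes were. The carboxylesterase gene Ces2c gave 9.19 to 10.09 in vehicle and 10.05 to 10.82 in treated females, and 8.52 to 10.17 and 10.92 to 11 in males. It differed by 1.19 ± 0.33 and did not pass the test (adjusted p 0.0978). Hmox1, heme oxygenase, gave 0.66 (adjusted p 0.344), and the aryl hydrocarbon receptor targets Cyp1a1 and Aldh3a1 gave -1.05 and -0.95 (adjusted p 0.457 and 0.269).

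Rgs17, a brake on G-protein signalling, gave 6.84, 6.96, 6.4, 7.17 and 7.57 in vehicle females and 8.05, 7.98, 8.38, 8.18 and 8.86 in treated females. In males it gave 6.62, 6.32, 6.66, 6.24 and 7.43 with vehicle and 8.10, 8.17, 7.99 and 9.92 with treatment. No treated animal overlapped vehicle, and low-dose male 4 stood well above the rest. Rgs17 rose 3.02-fold (1.60 ± 0.29, adjusted p 0.000898), and 0.0150 was the highest adjusted p with an animal left out. Ramp1, a partner of the receptor for calcitonin gene-related peptide, gave 13.48 to 13.86 in vehicle females and 13.80 to 14.20 in treated females. Vehicle males gave 12.68 to 13.40 and treated males 14.23 to 15.11, a clear gap. Ramp1 rose by 0.37 in females and 1.53 in males, with a mean of 0.95 ± 0.19 (adjusted p 0.00257). Ngef rose by 0.89 ± 0.21 (adjusted p 0.0230), a call that ended in 5 of the 19 fits (highest 0.0863, without vehicle male 1).

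Tuba8, an alpha-tubulin, gave 5.95 to 7.70 in vehicle and 7.12 to 8.77 in treated females, and 5.99 to 8.22 and 7.82 to 9.60 in males. Treated and vehicle animals overlapped in both sexes. The rise was 1.33 ± 0.31 (adjusted p 0.0266), and it was not called without the arrays of correlation under 0.9 (1.21, adjusted p 0.0619), without the 3 animals of high smooth muscle signal (1.13, adjusted p 0.153) or in 6 of the 19 fits with an animal left out (highest 0.130, without low-dose male 3). Eif5a2, a translation factor, was at 5.26 to 5.74 in vehicle and 6.27 to 7.94 in treated females, and at 5.04 to 5.87 and 5.80 to 6.58 in males. It rose by 0.93 ± 0.18 (adjusted p 0.00244). Low-dose female 5 gave the 7.94, and the other treated females reached at most 6.77. Vehicle signals lay near the filter on mean signal (5.26), so the size of the rise is uncertain. The remaining rises were smaller. Egln2, a prolyl hydroxylase that marks hypoxia-inducible factor for breakdown, rose by 0.53 ± 0.12 and the linker histone gene H1fx by 0.61 ± 0.16. In both, vehicle male 1 was the lowest animal of its group (8.6 and 5.46), and without it the calls ended (adjusted p 0.159 and 0.287), as they did in 3 and 13 other fits. Fkbp8 rose by 0.43, Ube2j1, a ubiquitin-conjugating enzyme of the endoplasmic reticulum, by 0.44, Rab4a, a GTPase of endosome recycling, by 0.30 and C7h12orf56 by 0.83. Their calls ended in 5, 14, 8 and 1 of the 19 fits. C7h12orf56 was dim: its vehicle animals gave 4.15 to 5.53, with a mean of 4.87 under the filter on mean signal (5.26), so the size of its rise is uncertain.

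**Figure D2:**
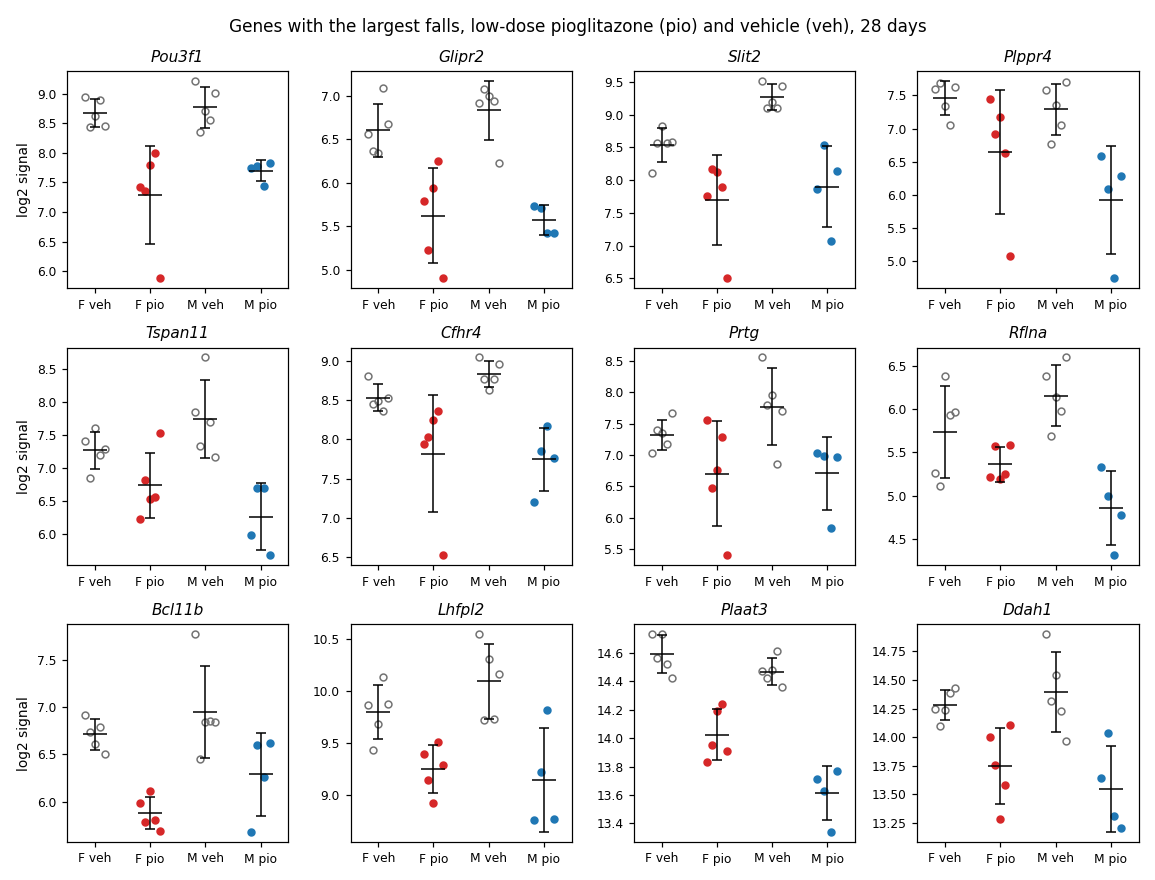
Log2 signal (vertical axis) of the 12 genes with the largest falls, for each animal of the 4 groups at 28 days, drawn as for the genes that rose (open circles vehicle, filled circles low-dose pioglitazone, bars mean and SD). Pou3f1, Glipr2 and Plaat3 are separated in both sexes, Cfhr4 by less than a point's width in females (8.3632 against 8.3579), and low-dose female 5 is the lowest treated female for Pou3f1, Glipr2, Slit2, Plppr4, Cfhr4, Prtg and Bcl11b.

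The most marked fall was that of Pou3f1, a POU-domain transcription factor known from keratinocytes and myelinating cells. Vehicle females gave 8.95, 8.44, 8.62, 8.90 and 8.45 and treated females 7.43, 7.35, 7.79, 8.0 and 5.88. Vehicle males gave 9.22, 8.36, 8.71, 8.56 and 9.01 and treated males 7.74, 7.78, 7.44 and 7.83. Every treated animal was below every vehicle animal of its sex, with low-dose female 5 far below the others. Pou3f1 was 2.35-fold lower (-1.23 ± 0.22, adjusted p 0.000394), and it fell by 1.05 without the arrays of correlation under 0.9 (adjusted p 0.000357). Bcl11b, a zinc-finger transcription factor of T cells and skin, was lower by -0.75 ± 0.18 (adjusted p 0.0352), and all 5 treated females (5.69 to 6.11) lay under all vehicle females (6.50 to 6.92). The call of Bcl11b ended in 9 of the 19 fits (highest 0.159, without vehicle male 1). Stat5a, a factor activated by cytokine and hormone receptors, was lower by -0.47 ± 0.10 (adjusted p 0.0120). It was not called without vehicle male 1 (adjusted p 0.0831) or in 1 other fit.

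Slit2, a secreted ligand of Robo receptors that guides growing axons, gave 8.11, 8.57, 8.83, 8.57 and 8.58 in vehicle females and 7.76, 8.17, 8.13, 7.90 and 6.50 in treated females. Its males gave 9.52, 9.10, 9.20, 9.10 and 9.44 with vehicle and 7.86, 8.53, 7.07 and 8.14 with treatment. Males were fully separated and females overlapped only at the lowest vehicle animal. Slit2 was 2.15-fold lower (-1.11 ± 0.23, adjusted p 0.00463). Porcn, the acyltransferase that Wnt proteins need for secretion, gave 12.82 to 13.42 in vehicle and 12.82 to 13.28 in treated females. In males it gave 14.20, 13.94, 13.99, 13.71 and 13.94 with vehicle and 12.87, 12.78, 12.51 and 12.79 with treatment, so that the drop was seen in males, with female ranges that overlapped. The mean difference was -0.64 ± 0.14 (adjusted p 0.0157), made up of -0.07 in females and -1.22 in males. The interval of the sex difference was -1.71 to -0.58, with an adjusted p of 0.122. Cfhr4, a relative of complement factor H, gave 8.36 to 8.81 and 6.53 to 8.36 in females and 8.63 to 9.04 and 7.20 to 8.17 in males, and was lower by -0.90 ± 0.21 (adjusted p 0.0230). Females were apart by less than the rounding (8.3632 against 8.3579) and males were separated. The call ended in 5 of the 19 fits (highest 0.0931, without low-dose female 5) and without the 3 animals of high smooth muscle signal (-0.76, adjusted p 0.114).

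Plaat3, a phospholipase and acyltransferase, gave 14.42 to 14.73 in vehicle and 13.83 to 14.24 in treated females, and 14.36 to 14.61 and 13.34 to 13.77 in males. The groups were separated in both sexes, and the fall was -0.71 ± 0.17 (adjusted p 0.0312). That call nonetheless ended in 13 of the 19 fits, at up to 0.100 without low-dose male 3. Sipa1l2, a protein of the Rap GTPase-activating family, gave 10.62 to 11.16 and 10.22 to 10.87 in females and 10.57 to 11.25 and 10.06 to 10.40 in males, a fall of -0.59 ± 0.12 (adjusted p 0.00257). Rin2, an exchange factor for Rab5, was lower by -0.58 ± 0.11 (adjusted p 0.00244). Both were called with each animal left out. Ddah1, which breaks down an inhibitor of nitric oxide synthase, fell by -0.69 ± 0.16 (adjusted p 0.0266) and was not called in 7 of the 19 fits. Glipr2 (-1.12), Plppr4 (-1.09), Tspan11 (-1.0), Prtg (-0.84), Rflna (-0.83) and Lhfpl2 (-0.75) completed the 12 largest falls. Rflna was dim in treated animals (mean 5.14, under the filter of 5.26), so the size of its fall is uncertain. Their adjusted p-values were 0.0230 for Lhfpl2, 0.0309 for Rflna and 0.0404 to 0.0483 for the rest, and their calls ended in 4, 9 and 13 to 15 of the 19 fits. The remaining called genes, Acss1, Agap1, Nme4, Ube2k, Lypd1, Galnt2, Ilkap and Cpne3, lay between -0.63 and -0.37. In that order, their calls ended in 16, 9, 13, 7, 3, 6, 6 and 16 of the 19 fits.

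Markers of other cell types were set beside these genes. The 16 smooth muscle markers had a median difference of -1.27, with 15 below 0, 0 called and 0 at an unadjusted p under 0.05. Their median was -0.45 in females and -2.04 in males, where vehicle males 2 and 4 stood at 14.9 and 14.1 against 8.0 to 8.6 for the other vehicle males and 8.4 to 9.6 for treated males. Without the 3 animals of high signal the median was -0.44, and without the arrays of correlation under 0.9 it was -1.88 (16 of 16 below 0). The 22 fibroblast and matrix markers had a median of -0.59 (20 of 22 below 0, 0 called), which was -0.24 without those 3 animals and -0.78 without the arrays of correlation under 0.9. Skeletal muscle markers had a median of -0.38 (9 of 10 below 0), erythrocyte markers -0.24 (6 of 7) and endothelial markers -0.15 (9 of 13), with 0 called. Without the 3 animals of high smooth muscle signal these were -0.25, 0.21 and -0.12. Without the same 3 animals, the medians of the 44 genes that rose and fell were 0.89 and -0.68, against 0.94 and -0.67 with them. Single genes moved more than these medians, as given above for Ttr, Tuba8 and Cfhr4. In that fit 33 genes were called, 28 of them among the 44, and all 44 kept their sign. With the smooth muscle mean as a covariate, all 44 were called, of 88 in all. Without low-dose female 5 alone, 25 of the 44 were called, of 27 in all. Without the arrays of correlation under 0.9, which include that animal and a 3-day array outside this comparison, 34 of the 44 were called. There were 43 calls in all, with medians of 0.91 and -0.66. The 10 genes that lost their call there were Ngef, Tuba8, Plaat3, Bcl11b, Plppr4, Glipr2, Acss1, Prtg, Nme4 and H1fx (adjusted p 0.0510 to 0.117). The 16 that lost it without the animals of high smooth muscle signal were Cfhr4, Ngef, Ilkap, Tuba8, Ube2k, Agap1, Plaat3, Ttr, Plppr4, Glipr2, Acss1, Ube2j1, Plin2, Prtg, Nme4 and H1fx (adjusted p 0.0560 to 0.206).

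**Figure D3:**
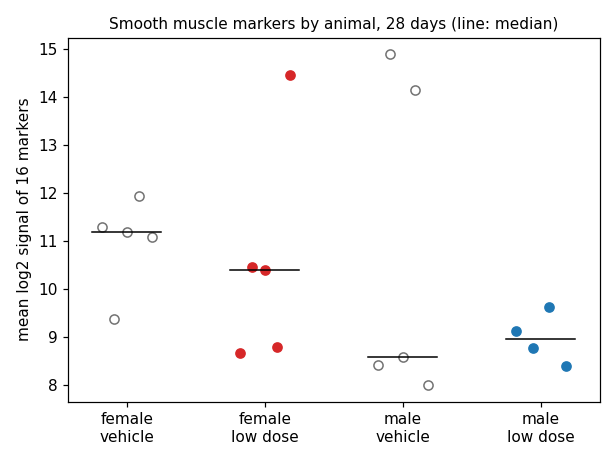
Mean log2 signal of 16 smooth muscle markers (vertical axis, not starting at 0) for each animal of the 4 groups at 28 days, with the group median as a line; open circles are vehicle and filled circles low-dose pioglitazone. Vehicle males 2 and 4 and low-dose female 5 lie between 14.1 and 14.9 and the other 16 animals between 8.0 and 11.9.

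Of 27 leukocyte markers tested, 23 were below 0 (85.2%, against 54.4% of all genes), with a median of -0.32. None was called, and 8 had an unadjusted p under 0.05, all lower, where 5.2% of all genes were lower at that p. Ptprc, the CD45 antigen of white cells, gave -0.58 ± 0.20 (adjusted p 0.207), the myeloid adaptor gene Tyrobp -0.44 ± 0.17 (adjusted p 0.311) and Cd74, the MHC class II invariant chain, -0.53 ± 0.21 (adjusted p 0.322). The mean signal of the 33 listed genes on the array ranged from 7.9 to 8.6 in vehicle and 7.9 to 8.1 in treated females, and from 8.1 to 8.3 and 7.9 to 8.2 in males. Without the 3 animals of high smooth muscle signal the list median was -0.29. In the lists of urothelial differentiation (24 tested, median 0.05), basal urothelium (12, -0.20), squamous and cornified genes (16, 0.02), cell cycle and mitosis (28, 0.06), p53 targets (17, 0.01), immediate-early and EGF family genes (20, -0.08), interferon-stimulated genes (21, -0.05), inflammatory mediators (16, -0.13) and oxidative phosphorylation (36, -0.01), 0 genes were called. Without the arrays of correlation under 0.9, the medians of the p53 and interferon lists were 0.12 and 0.07. Of the 24 urothelial differentiation genes, 1 higher and 2 lower had an unadjusted p under 0.05.

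Females and males were then compared. Tested in each sex alone, 5 genes were called in females (0.0393%), 3 higher (0.0236%) and 2 lower (0.0157%). In males 19 were called (0.149%), 11 higher (0.0865%) and 8 lower (0.0629%). At an unadjusted p under 0.05 there were 1495 genes in females (11.8%) and 1260 in males (9.91%). Of the 44 genes, 35 had the larger difference in males, where 50.7% of all genes did. Medians of the genes that rose were 0.56 in females and 1.19 in males, and those of the genes that fell were -0.56 and -0.85. The difference between the sexes passed the test for 1 gene of 12713 (0.00787%), which is not among the 44, with 1153 genes at an unadjusted p under 0.05 (9.07%). Phospho1, a phosphatase of bone mineralisation, gave 5.68, 5.44, 5.67, 5.88 and 6.06 in vehicle females and 5.49, 5.43, 5.23, 5.31 and 5.10 in treated females. Vehicle males gave 5.30, 5.31, 4.87, 5.29 and 4.16 and treated males 5.81, 5.92, 5.64 and 6.20. Treated males lay above and treated females mostly below their vehicle animals, at low signals. Males minus females came to 1.34 ± 0.26 (adjusted p 0.0241). The call ended without vehicle female 4 or 5 (0.0780 and 0.0917), vehicle male 5 (0.102), low-dose female 5 (0.0836) or low-dose male 4 (0.0865).

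**Figure D4:**
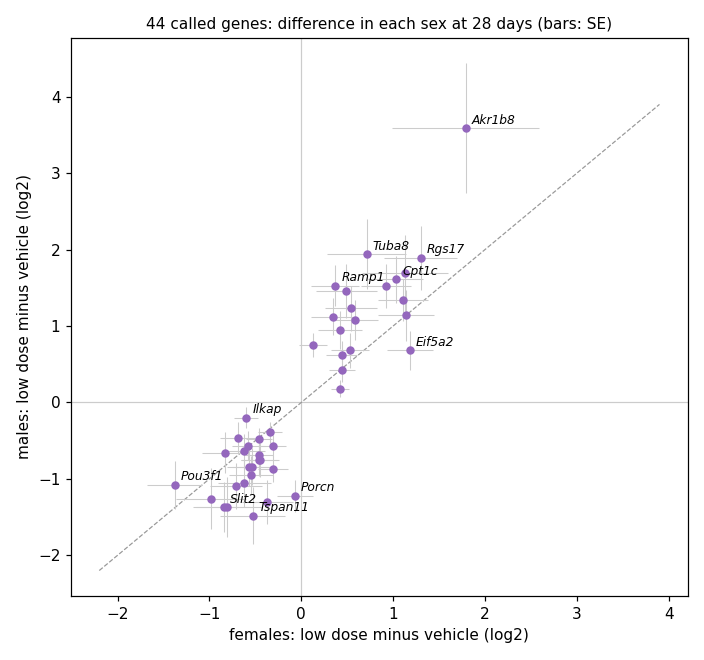
Difference between low-dose pioglitazone and vehicle (log2) in females (horizontal axis) and males (vertical axis) for the 44 called genes, with SE bars and the line of equal difference dashed. All points lie in the lower left or upper right quadrant, and 35 of the 44 are larger in males.

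Among the 5 genes called in females were Eif5a2, Pou3f1 and Ilkap, which are among the 44. The other two were Calr, calreticulin, a calcium-binding chaperone of the endoplasmic reticulum, and Ntn4, a netrin of basement membranes, which was named after its values were seen. Ntn4 had means of 5.19 ± 0.76 in vehicle and 7.78 ± 1.57 in treated females (SD, n = 5 each), a limma difference of 2.59 (adjusted p 0.00808). Without low-dose female 5 it was 1.94 (adjusted p 0.169), and without all arrays of correlation under 0.9 it was also 1.94 (adjusted p 0.0486). With the mean of all its probes Ntn4 gave 1.16 (adjusted p 0.0763), and its female vehicle mean lies under the filter on mean signal. Eif5a2, Ilkap and Pou3f1 likewise lost their female call without that animal (0.88, -0.52 and -1.03, adjusted p 0.430, 0.189 and 0.430). The calls of all 4 genes also ended without vehicle female 4 or 5 (adjusted p 0.0579 to 0.116), and those of Eif5a2, Ilkap and Pou3f1 without vehicle female 3 (0.0602) or low-dose female 2 (0.0806). Eif5a2 further lost its female call without vehicle female 2 (0.129), and Ilkap without low-dose female 1 (0.0635). Pou3f1 lost it without vehicle female 1 or 2 (0.0659 and 0.0577). Calr gave 11.39, 11.64, 11.41, 11.05 and 11.27 in vehicle females and 13.17, 12.86, 12.21, 12.37 and 12.38 in treated females, with no overlap. In males it gave 12.11 to 12.91 with vehicle and 11.82 to 12.93 with treatment, which overlapped fully. Its female difference was 1.25 ± 0.27 (adjusted p 0.0421), and the call ended in 8 of the 10 fits that left out a female, with adjusted p-values of 0.0577 to 0.138. The male difference was -0.22, and the difference between the sexes, -1.47 ± 0.40, had an adjusted p of 0.205. Fitted with only the female vehicle and low-dose arrays of 28 days, these 5 genes all lost their female call. The limma adjusted p was then 0.543 for Ntn4, Eif5a2, Ilkap and Pou3f1 and 0.0551 for Calr.

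Animals dosed for 3 and 90 days, each with their own vehicle group, showed how the 44 genes stood at other times. At 3 days 34 of the 44 (77.3%) had the same sign as at 28 days, where 56.0% of all genes did, and 2 were called, Acaa1a and Acaa1b (3 of 12713 genes in all, 0.0236%). At 90 days 39 (88.6%) had the same sign, against 60.0% of all genes, and 18 were called, 11 higher and 7 lower (66 genes in all, 0.519%). Genes that rose at 28 days had a median of 0.25 at 3 days and 0.93 at 90 days, and genes that fell one of -0.10 and -0.47. The genes were chosen by their 28-day values, a choice that favours larger sizes at 28 days than at the other times. Acaa1a gave 1.15, 1.22 and 1.37 at 3, 28 and 90 days, and Acaa1b 1.11, 1.22 and 1.41, each passing the test at each time. Cpt1c gave 0.87, 1.32 and 2.09, Rgs17 0.60, 1.60 and 2.54 and Tuba8 0.32, 1.33 and 2.15, none of them called at 3 days (adjusted p 0.165, 0.558 and 0.702). Ttr and Rbp7 gave 1.28 and 0.89 at 3 days (adjusted p 0.256 and 0.165), 1.41 and 1.14 at 28 days and 1.33 and 1.31 at 90 days. Pou3f1 gave -0.37, -1.23 and -1.53. Slit2 gave -0.24, -1.11 and -0.66, not called at 3 or 90 days (adjusted p 0.681 and 0.269).

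**Figure D5:**
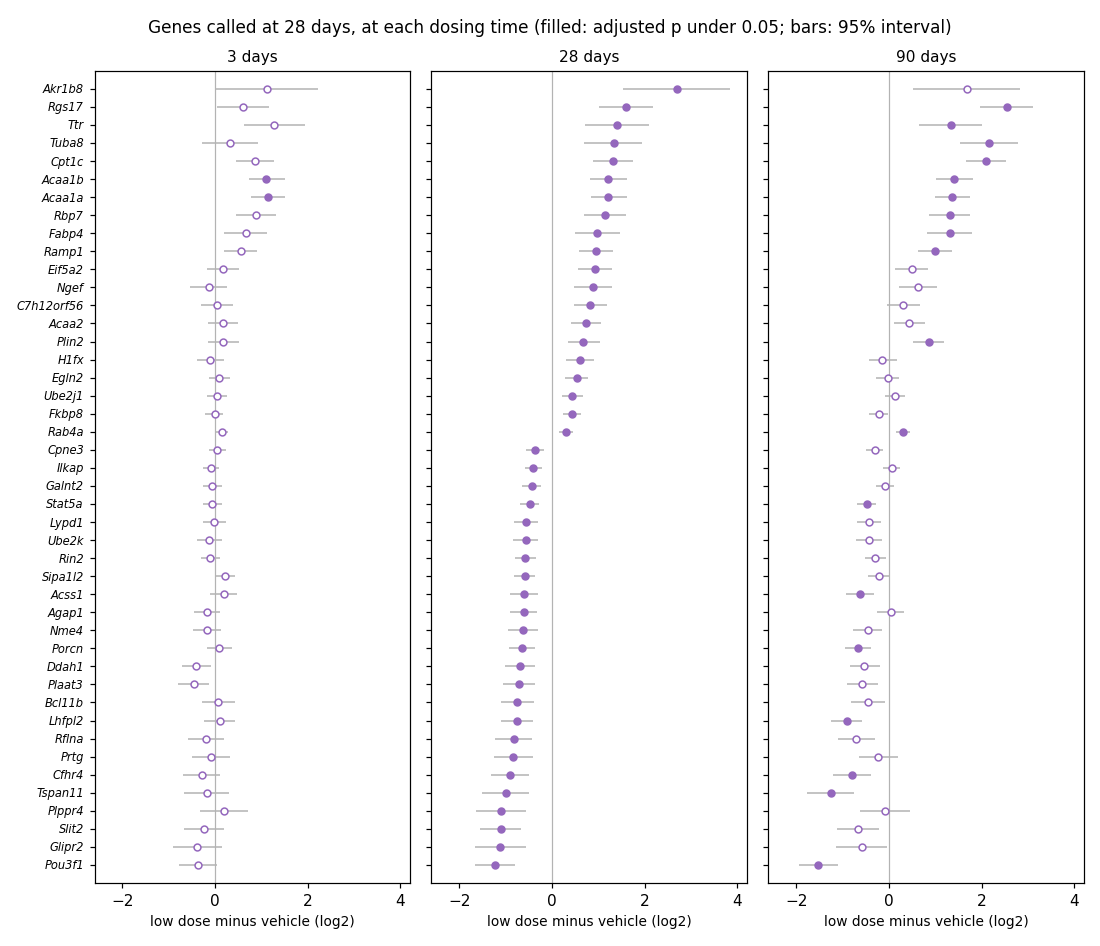
Difference between low-dose pioglitazone and vehicle (log2, horizontal axis) after 3, 28 and 90 days for the 44 genes called at 28 days, ordered by their 28-day value; bars are 95% intervals and filled points have an adjusted p under 0.05. Filled at 3 days are Acaa1a and Acaa1b, and 18 genes are filled at 90 days.

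Tested directly, the effect at 28 days differed from that at 3 days for 2 genes (0.0157%), with 810 at an unadjusted p under 0.05 (6.37%). Calr was lower at 3 days (-0.99, adjusted p 0.00761) and 0.51 at 28 days (adjusted p 0.311), a change of 1.5 ± 0.28 (adjusted p 0.00672). Sipa1l2 gave 0.22 at 3 days (adjusted p 0.563) and -0.59 at 28 days, a change of -0.81 (adjusted p 0.0193). The Sipa1l2 change was not called without vehicle female 5 (0.0564), low-dose female 4 (0.0682) or low-dose male 3 (0.0643). Between 28 and 90 days the limma test called 0 genes, with 377 at an unadjusted p under 0.05 (2.97%). The 28 minus 90 day difference had intervals of -1.76 to -0.13 for Rgs17, -1.38 to -0.17 for Cpt1c, -1.71 to 0.05 for Tuba8 and -0.69 to 0.39 for Acaa1a. Fkbp8, Egln2 and H1fx stood at 0.43, 0.53 and 0.61 at 28 days and at -0.22, -0.03 and -0.14 at 90 days. Plppr4 and Agap1 went from -1.09 and -0.61 to -0.09 and 0.04. None of these changes passed the test, and the genes were picked after their values at both times were seen.

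The higher dose, 63 mg/kg/day, was set against the lower dose directly at 28 days. Limma called 0 genes between the doses, with 862 at an unadjusted p under 0.05 (6.78%). High minus low came to 0.24 for Acaa1a (interval -0.14 to 0.63), 0.32 for Cpt1c (-0.11 to 0.74), 0.41 for Rgs17 (-0.17 to 0.98), 0.16 for Rbp7 (-0.28 to 0.61) and 0.12 for Akr1b8 (-1.04 to 1.27). For Pou3f1 it was 0.35 (-0.08 to 0.77) and for Porcn -0.16 (-0.44 to 0.12). Rin2 had the interval farthest from 0 among the genes that fell at the low dose, 0.26 to 0.70, with an adjusted p of 0.500. None of these differences passed the test, and the intervals bound what the arrays could show. The genes were called from the same low-dose arrays that enter this difference, so the intervals are not independent of that choice.

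Comparisons of the high dose and of rosiglitazone with vehicle share the 10 vehicle animals with the low-dose comparison, so their values are only set side by side, and the rosiglitazone dose (10 mg/kg/day) is not matched. The high dose had 71 called genes (0.558%), 44 higher (0.346%) and 27 lower (0.212%). Rosiglitazone had 219 (1.72%), 111 higher (0.873%) and 108 lower (0.85%). In the order low dose, high dose, rosiglitazone, Acaa1a gave 1.22, 1.47 and 1.53, Cpt1c 1.32, 1.64 and 2.25, Rbp7 1.14, 1.30 and 1.75, and Ramp1 0.95, 1.17 and 1.74. Plin2 gave 0.68, 1.07 and 1.04 and Fabp4 0.97, 1.02 and 1.12. Among the falls, Pou3f1 gave -1.23, -0.88 and -1.26, Slit2 -1.11, -0.59 and -0.92, and Rin2 -0.58, -0.10 and -0.30. Slit2 at the high dose and Rin2 with both were not called (adjusted p 0.435, 1 and 0.172).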

How the data were processed

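RNA from the scraped urothelium of each animal was run on one-colour (Cy3) Agilent arrays, per the labels' protocols. The deposited values are log2 signals. Normalisation came from the authors, who name limma in their processing notes, and its steps are not given in the sources used here. No centring per gene was found, so differences read as treated minus vehicle. Of 30367 probes, 20369 carry 1 gene symbol, 0 several and 9998 none. RefSeq accessions matched 17237 probes and updated 2886 symbols. Each of 16951 genes was represented by its brightest probe (3091 genes have more than 1), and the lowest 25% by mean signal were left out, leaving 12713.

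The 116 arrays that passed quality control shared 1 fit with a mean for every group, in limma 3.58.1 under R 4.3.3 (eBayes with a trend, 92 residual degrees of freedom). Benjamini-Hochberg adjustment ran over all genes of a contrast. The p-values weigh each difference against a spread between animals that was pooled over all 116 arrays, most of them outside this comparison. The number of animals in each group limits the precision. The procedure was tested on simulated data. Tables were made with Python 3.11.15.

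Members, lists and alternatives were chosen with earlier results of these data known, and 3 alternatives were added after the files were seen. Genes named by rule are the 12 largest rises and 12 largest falls among called genes of the same sign in both sexes, up to 3 members of smallest p in each list, the 5 smallest p-values for the sex difference, 28 minus 3 days, 28 minus 90 days and high minus low dose, and Pparg and Rxra, passing over predicted loci. Others named were chosen after their values were seen. Alternatives covered normalisation, the filter, the choice of probe, the arrays in the fit, the replicate block, the variance model, array weights, failing arrays and each animal left out. The labels give no batch.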

Additional observations from a re-analysis of the deposited data

Results flagged for a closer look

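Among the 44 called genes with Pparg and Rxra, 184 groups of animals were examined for a single animal far from the others of its group, and 21 values stood out, where chance gives about 1 in 20 groups. Vehicle male 1 gave 4 of them, the lowest values of Egln2 (8.6) and H1fx (5.46) and the highest of Lypd1 (10.16) and Ube2k (8.91). Vehicle male 3 gave the highest Acaa1b (15.67) and the lowest Akr1b8 (5.80) and Plin2 (11.82) of its group. Low-dose female 5 was lowest for Cfhr4 (6.53), Slit2 (6.50) and Rxra (6.96).

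High values were also set apart for Rgs17 in low-dose male 4 (9.92), Ttr in low-dose male 2 (12.23), Plin2 in vehicle female 2 (12.85) and Pparg in low-dose female 2 (14.65). Low values were set apart for Prtg in low-dose male 3 (5.84), Ramp1 in low-dose female 1 (13.80), Egln2 in low-dose female 4 (9.76), Sipa1l2 in vehicle male 4 (10.57), Glipr2 in vehicle male 5 (6.23), and Agap1 (10.65) and Tuba8 (5.95) in vehicle female 4.

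Effects that differed between groups by a direct test were those of Phospho1 between males and females (1.34, adjusted p 0.0241), and of Calr (1.5, adjusted p 0.00672) and Sipa1l2 (-0.81, adjusted p 0.0193) between 28 and 3 days.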

How the results depend on the processing

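For the 126 named genes, 3996 values under other settings included 0 that reversed a called direction, 400 that lost a call and 30 that gained one. All 44 genes kept their sign in every alternative that tested them. For the mean over sexes, 44 calls became 451 with array weights, 2 with the failing arrays included and 88 with the smooth muscle covariate (added after seeing the data). With only the arrays of the contrast 61 genes were called, 26 of them among the 44, and with no filter 33, all among the 44. In females, 5 calls became 3 with the lowest 50% left out, 3 with the mean of all probes, 111 with array weights and 0 with failing arrays. With only the arrays of the contrast 3 genes were called, all other genes than these 5. In the alternatives added later, the female calls became 1 without the arrays of correlation under 0.9, 0 without those of high smooth muscle signal and 22 with the covariate. In males, 19 calls became 9 with only the arrays of the contrast, 36 with the replicate block, 236 with array weights, 1 with failing arrays, 39 without the arrays of correlation under 0.9, 52 without those of high smooth muscle signal and 30 with the covariate. For the sex difference, 1 call became 2 with no filter, 0 with the lowest 50% left out, 0 with only the arrays of the contrast, 0 with the replicate block, 69 with array weights, 0 with failing arrays, 8 with the mean of all probes, 0 without the arrays of correlation under 0.9 and 5 without those of high smooth muscle signal. For 28 minus 3 days, 2 calls became 1 with only the arrays of the contrast, 1 with the replicate block, 5 with array weights and 0 with failing arrays. For 28 minus 90 days, 0 became 2 with array weights and 1 with the covariate, and for the doses 0 became 9 with array weights. With each of the 19 vehicle and low-dose animals of 28 days left out in turn, and all animals of other groups kept, counts ranged from 18 to 41 for the mean over sexes, 0 to 43 for females, 10 to 36 for males, 0 to 9 for the sex difference and 1 to 2 for 28 minus 3 days, and stayed at 0 for 28 minus 90 days and between doses. Array weights gave low-dose female 5 a weight of 0.0525. The cause of these changes was not tested.

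Replicate numbers are shared between groups, but nothing in the labels ties same-numbered animals together. Deviations of same-numbered vehicle and low-dose animals correlated at -0.19 to 0.172 in females and -0.21 to -0.119 in males. Those of differently numbered animals correlated at -0.242 to 0.315 in females and -0.262 to 0.317 in males. The same-numbered values lay within the range of the others, so no pairing was seen, though so few pairs cannot exclude one. With the replicate block 56 genes were called for the mean over sexes, 40 of them among the 44.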

Other observations

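Of 22 genes of insulin and glucose handling tested, 0 were called and 11 were below 0, with a median of 0.01. At an unadjusted p under 0.05, 2 were higher and 3 lower, where 698 and 661 of all 12713 genes were. Among the 22, Gpt, alanine aminotransferase, gave 11.06, 10.8, 10.84, 10.72 and 10.67 in vehicle females and 9.84, 10.02, 10.2, 10.53 and 9.28 in treated females. Vehicle males gave 11.21, 10.62, 11.02, 10.72 and 10.71 and treated males 9.96, 9.8, 9.83 and 10.17. The groups did not overlap in either sex, yet the difference of -0.88 ± 0.23 did not pass the test (adjusted p 0.0642). It passed without the arrays of correlation under 0.9 (adjusted p 0.00582) and not without those of high smooth muscle signal (0.127). At 90 days Gpt was lower by -1.02 (adjusted p 0.00981). Its mitochondrial relative Gpt2 gave 0.65 and Irs2, an adaptor of the insulin receptor, -0.58 (adjusted p 0.444 and 0.344).

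Of 20 immediate-early and EGF family genes tested, 14 were below 0 (70.0%, against 54.4% of all genes), the median was -0.08 and 0 were called. The 4 with an unadjusted p under 0.05 were all lower, Myc (-0.51), Atf3 (-1.18), Dusp6 (-0.47) and Egr1 (-1.18), with adjusted p-values of 0.176 to 0.449. Among p53 targets, Gadd45a (0.42), Sesn2 (0.55) and Phlda3 (0.45) were above 0 and Fas (-0.33) below, none passing the test (adjusted p 0.192 to 0.430). The 28 cell cycle genes had a median of -0.13 in females and 0.36 in males, with 0 called over both sexes. Over both, the median was 0.06 with 11 below 0, 0.17 with 6 below 0 without the arrays of correlation under 0.9, and 0.19 with 4 below 0 without those of high smooth muscle signal. Pparg gave 0.15 after 3 days, -0.32 after 28 days and -0.52 after 90 days, of which the last passed the test (adjusted p 0.0460).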
